A study of Rattus norvegicus with 6 samples.

Results

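The genes described here move inorganic phosphate across kidney tubule cells or relay the hormones that control it: the sodium-phosphate cotransporters Slc34a1, Slc34a3, Slc20a1 and Slc20a2, the scaffold Pdzk1, the parathyroid hormone receptor Pth1r, the FGF receptor Fgfr1 and Klotho (Kl). They were taken as a fixed list of 8 genes, and a probe was assigned to a gene when the array's own annotation gave it a RefSeq transcript of that rat gene. This gave 16 of the 61657 non-control probes on the array, with 1 to 4 probes per gene, and 8 of the 15284 genes that could be named. All 16 were well above background on all 6 arrays, and all 16 passed the filter on dim probes.

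Renal cortex RNA of 6 rats, all males of the Sprague-Dawley strain bought at 5 weeks of age, was read on 1-colour Agilent arrays, with 1 array per animal. In the 2-amino-4-nitrophenol group 3 rats were dosed for 4 weeks with 750 mg/kg/day of that nitroaromatic compound, a hair dye ingredient, and are called dosed rats below. In the corn oil group 3 rats received corn oil over the same 4 weeks. Values below are log2 processed signal minus the 75th percentile of the array, so that 0 is the level of the 75th percentile, and differences are 2-amino-4-nitrophenol minus corn oil.

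In the kidney, phosphate that has been filtered is taken back in the proximal tubule by the type II cotransporters NaPi-IIa (Slc34a1) and NaPi-IIc (Slc34a3) of the brush border. Parathyroid hormone, through PTH1R, and FGF23, through an FGF receptor paired with Klotho, both lower phosphate uptake by withdrawing these transporters from the membrane. Klotho is made in the distal convoluted tubule and also in the proximal tubule, and a shed form of it circulates.

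Between 61.6% and 66.3% of the non-control probes were well above background on the 2-amino-4-nitrophenol arrays, against 68.1% to 70.9% on the corn oil arrays, and no probe was saturated. The 75th percentile of the signal was 563.6 to 684.7 on the 2-amino-4-nitrophenol arrays and 743.4 to 852.3 on the corn oil arrays. All 10 listed markers of the proximal tubule (S1 and S2 segments), the main cell type of the cortex, were measured. The brightest probes of these 10 genes summed to 997.31 to 1056.18 times the 75th percentile on the 2-amino-4-nitrophenol arrays and 1007.08 to 1097.85 times on the corn oil arrays. Corn oil replicate 2 lay on a slide of its own, and the other 5 arrays shared a slide. With 3 arrays per group, the number of arrays limits the precision of every value.

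The promoter windows of Kl, Pth1r and Slc34a1 are given because these were the 3 members with at least 1 probe whose groups did not overlap. Each window runs from 250 bases before to 50 bases after the start of the gene, on the strand of the gene, from RefSeq on the GRCr8 build. Capitals mark the GC box, an Sp1 motif with the letters GGGCGG, on either strand. They also mark the core of the TATA box, whose letters are TATAAA, on either strand. Some GC boxes of Pth1r overlap each other.
Kl (chr12:5325753-5326052, plus strand): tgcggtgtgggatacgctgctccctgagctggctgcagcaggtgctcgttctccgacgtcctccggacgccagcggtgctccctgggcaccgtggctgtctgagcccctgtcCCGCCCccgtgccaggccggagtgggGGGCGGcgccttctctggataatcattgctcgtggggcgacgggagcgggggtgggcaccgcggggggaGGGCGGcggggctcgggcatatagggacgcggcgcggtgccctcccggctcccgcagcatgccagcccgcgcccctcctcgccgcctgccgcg
Pth1r (chr8:119595522-119595821, minus strand): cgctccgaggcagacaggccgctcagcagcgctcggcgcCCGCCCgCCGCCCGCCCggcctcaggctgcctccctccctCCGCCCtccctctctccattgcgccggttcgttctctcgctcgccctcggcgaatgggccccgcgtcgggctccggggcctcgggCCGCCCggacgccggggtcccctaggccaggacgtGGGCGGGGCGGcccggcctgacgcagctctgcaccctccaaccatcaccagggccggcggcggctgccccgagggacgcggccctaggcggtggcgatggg
Slc34a1 (chr17:9238934-9239233, minus strand): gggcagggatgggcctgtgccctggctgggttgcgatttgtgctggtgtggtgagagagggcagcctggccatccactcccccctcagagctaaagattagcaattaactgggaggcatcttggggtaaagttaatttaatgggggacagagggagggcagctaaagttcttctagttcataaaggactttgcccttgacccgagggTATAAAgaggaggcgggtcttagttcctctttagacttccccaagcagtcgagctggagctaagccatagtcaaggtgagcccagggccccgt
The Kl window held 35 CpG dinucleotides and 3 GC boxes, and the Pth1r window 41 CpG dinucleotides and 7 GC boxes. The Slc34a1 window held 5 CpG dinucleotides, no GC box and 1 TATAAA. The windows of Slc34a3 and Pdzk1, not printed here, held 4 and 3 CpG dinucleotides, no GC box and no TATAAA. Over all 33469 rat promoter windows of that length, the median was 7 CpG dinucleotides, 33.1% held a GC box and 14.2% held TATAAA. The core of the antioxidant response element, TGACNNNGC, was found on either strand in the Pth1r and Pdzk1 windows and in 12.1% of all windows, but not in those of Kl, Slc34a1 or Slc34a3. Windows were at hand for 5 of the 8 members. A match describes the letters of the window and says nothing of a factor's binding.

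The comparison asked which of these transcripts differed between the dosed and the corn oil rats. Klotho had the lowest p-values of the members, with both of its probes lower on every 2-amino-4-nitrophenol array than on any corn oil array, at 77.0% and 80.2% of the corn oil level. The parathyroid hormone receptor Pth1r was lower on every 2-amino-4-nitrophenol array too, at 84.6% of the corn oil level. Both probes of the cotransporter Slc20a1 averaged higher in the dosed rats, at 125% and 122% of the corn oil level, but dosed animal 2 was at the corn oil level. The probes of Slc34a1 and of Slc20a2 differed among themselves, Slc34a3 overlapped between the groups, and the scaffold Pdzk1 had a difference close to 0. No member passed the adjusted threshold: in limma, 0 of the 16 probes had an adjusted p under 0.05, and 0 of the 40894 tested probes did (0%).

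At an unadjusted p under 0.05, 3 of the 16 probes were lower (both of Kl and the one of Pth1r) and 0 were higher. Among all tested probes, 9.43% were lower and 11.3% higher by that measure, together 8473, of which 54.5% were higher. After quantile normalization 43.3% of such probes were higher, and with spike-in scaling 3% were. The groups did not overlap for 3 member probes that were lower and 1 that was higher, where 12.9% of all tested probes were lower without overlap and 17.1% were higher. The median log2 difference was -0.10 over the 16 probes and 0.00 over all tested probes, and the median absolute difference was 0.20 in both. The range over the member probes was -0.38 to 0.33. The 3 lower probes are 18.8% of the 16 and come from 2 genes. This split at an unadjusted p under 0.05 moved with the processing: without 2-amino-4-nitrophenol replicate 2 it was 3 higher and 4 lower, with array weights 4 higher and 6 lower, and after quantile normalization 0 higher and 6 lower.

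**Figure D1:**
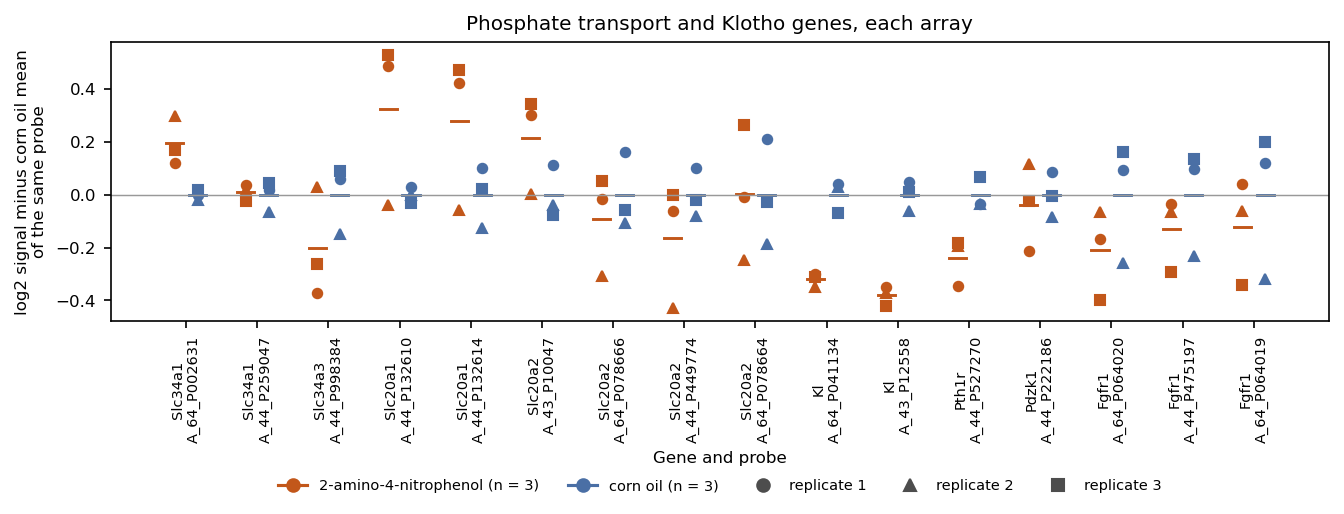
Log2 signal of each of the 16 probes on each array, relative to the corn oil mean of the same probe. Points are arrays (symbols mark the replicate number), short lines are group means, and 2-amino-4-nitrophenol stands left of corn oil for each probe. Both Kl probes and the Pth1r probe lie below all corn oil points, and replicate 2 departs from the other 2-amino-4-nitrophenol arrays for Slc20a1 and Slc20a2.

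Klotho, the co-receptor that gives FGF receptors their affinity for FGF23, was read by the probes A_43_P12558 and A_64_P041134. The first had log2 values of 1.54, 1.52 and 1.47 on 2-amino-4-nitrophenol replicates 1, 2 and 3, compared with 1.94, 1.83 and 1.90 in the corn oil rats. The second had 1.63, 1.58 and 1.62 on the 2-amino-4-nitrophenol arrays, compared with 1.97, 1.96 and 1.86 in the corn oil rats. The 3 animals of each group lay close together, with SDs of 0.04 and 0.03 in the 2-amino-4-nitrophenol group and 0.05 and 0.06 in the corn oil group. The gap between the groups was 0.29 for A_43_P12558 and 0.23 for A_64_P041134, wider than the spread of either group.

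The log2 difference of Kl was -0.38 ± 0.08 for A_43_P12558 (SE, n = 3 per group; 95% interval -0.58 to -0.17; limma adjusted p = 0.154). For A_64_P041134 it was -0.32 ± 0.09 (95% interval -0.52 to -0.11; limma adjusted p = 0.176). By p-value these probes ranked 1000th and 2022nd of the 40894 tested. Their values over the 6 arrays correlated at r = 0.95, as a description of probes of 1 gene on the same arrays. Every alternative run (19 for A_64_P041134 and 18 for A_43_P12558) left these probes lower, between -0.70 and -0.29. Several of these runs, such as the filters and the replicate block, leave the difference itself unchanged by construction. Of the alternatives, array weights brought them past the threshold, with limma adjusted p of 0.0237 for A_43_P12558 and 0.0339 for A_64_P041134. In that fit 8059 of the 40894 tested probes passed, as did 3 of the 16 member probes (18.8%), and the weights of the dosed arrays were 0.37, 0.35 and 2.9, so that the dosed mean rested mainly on replicate 3. The range of adjusted p over all alternatives went up to 0.418.

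Markers of the distal tubule (convoluted and connecting), where Klotho is abundant, also had lower summed signal on the 2-amino-4-nitrophenol arrays. Of the 6 listed genes 4 were tested, and 2 of these, Slc12a3 and Slc8a1, were lower without overlap by their brightest probe. Calb1 and Trpv5 overlapped by theirs. None passed the adjusted threshold (0 of 4; 2 had an unadjusted p under 0.05). Of all tested probes, 12.9% were lower without overlap and 9.43% were lower at that unadjusted p. The list is too short to set against these shares. The brightest probes of the 4 genes summed to 16.55 to 20.36 times the 75th percentile on the 2-amino-4-nitrophenol arrays and 22.66 to 29.15 times on the corn oil arrays. Slc12a3 made up most of the sum on every array, so the sum mainly repeats that gene. The thiazide-sensitive cotransporter Slc12a3, the defining marker, had log2 values of 3.95, 3.53 and 3.72 on the 2-amino-4-nitrophenol arrays, compared with 4.52, 4.12 and 4.16 in the corn oil rats for its brightest probe. Its log2 difference was -0.53 for that probe and -0.52 and -0.13 for the others. Pvalb was well above background on 1 array of the dosed rats and on no corn oil array, and was not tested, and Trpm6 had no named probe. In whole cortex, fewer cells of a type and less RNA per cell cannot be told apart, and the part of the distal markers in the Klotho difference was not tested.

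Pth1r encodes the receptor by which parathyroid hormone acts on proximal and distal tubule cells. Its single probe, A_44_P527270, had log2 values of 4.34, 4.49 and 4.5 on 2-amino-4-nitrophenol replicates 1, 2 and 3, compared with 4.65, 4.65 and 4.75 in the corn oil rats. All 3 dosed animals were below all 3 corn oil animals, with a gap of 0.15 between the groups. The log2 difference was -0.24 ± 0.09 (SE, n = 3 per group; 95% interval -0.47 to -0.02; limma adjusted p = 0.224). It stayed negative in all 19 alternatives, several of which cannot change it by construction, between -0.56 and -0.19. Among tested probes split by signal into deciles, Pth1r was in decile 10, the brightest, whose median log2 difference was 0.24. The decile medians rose steadily with signal, from -0.22 in decile 1, the dimmest. Dim probes could pass the filter through either group alone, which can shift the medians of the dim deciles. Both Kl probes were in decile 8, whose median was 0.05. After quantile normalization the difference of Pth1r was -0.43.

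Fgfr1 encodes an FGF receptor that binds FGF23 together with Klotho. Its 3 probes moved together over the arrays, with r from 0.92 to 0.99 between them, and all were slightly lower in the 2-amino-4-nitrophenol group. The brightest, A_64_P064020, had log2 values of 0.33, 0.43 and 0.10 on the 2-amino-4-nitrophenol arrays, compared with 0.59, 0.24 and 0.66 in the corn oil rats. Corn oil replicate 2, on its own slide, lay among the dosed animals. The other corn oil arrays lay above all 3. The log2 differences of the 3 probes were -0.21 ± 0.15, -0.13 ± 0.14 and -0.12 ± 0.18, with limma adjusted p from 0.442 to 0.711. Within the shared slide, which leaves out corn oil replicate 2, they were -0.34, -0.25 and -0.28. Without 2-amino-4-nitrophenol replicate 3 they were -0.12, -0.05 and -0.008, and without corn oil replicate 3 they were -0.13, -0.06 and -0.02.

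**Figure D2:**
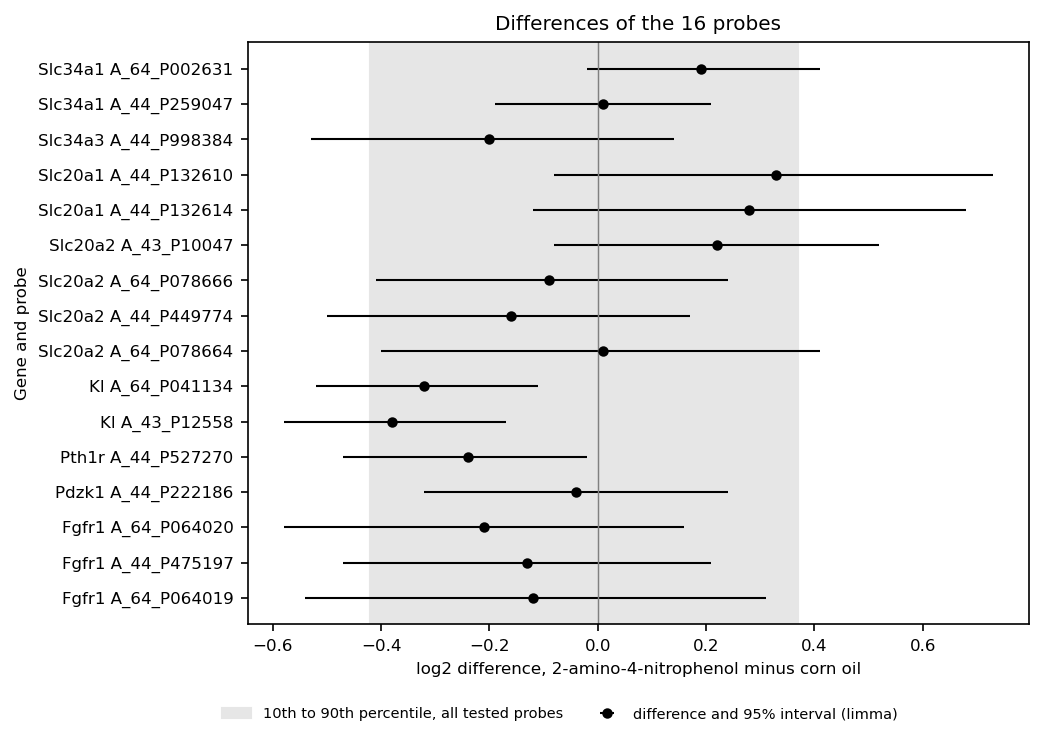
Log2 difference of each of the 16 probes, 2-amino-4-nitrophenol minus corn oil, with its 95% interval from limma (3 arrays per group). The grey band runs from -0.42 to 0.37 and spans the middle deciles of the 40894 tested probes, leaving out the lowest and the highest decile. The intervals of both Kl probes and of Pth1r lie below 0, and those of the other 13 probes cross it.

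Slc34a1, the main phosphate transporter of the proximal brush border, was in decile 10 of signal by both of its probes. Its probe A_64_P002631 had log2 values of 8.13, 8.31 and 8.18 on the 2-amino-4-nitrophenol arrays, compared with 8.01, 7.99 and 8.03 in the corn oil rats. By this probe all dosed animals were above all corn oil animals, with a log2 difference of 0.19 ± 0.09 (95% interval -0.02 to 0.41, limma adjusted p = 0.272). The other probe, A_44_P259047, had 7.04, 7.02 and 6.98 on the 2-amino-4-nitrophenol arrays, compared with 7.02, 6.94 and 7.05 in the corn oil rats. There the groups overlapped, and the log2 difference was 0.01 ± 0.08 (95% interval -0.19 to 0.21, limma adjusted p = 0.955). The probes correlated at r = 0.16 over the 6 arrays. Both differences were below 0.24, the median of the probes in that decile, where Slc34a3 and Pdzk1 also lay.

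The sign of Slc34a1 depended on the scaling. Quantile normalization gave -0.15 and -0.29 for A_64_P002631 and A_44_P259047, and scaling on spike-in controls gave -0.12 and -0.31. Spike-in scaling moved the median of all tested probes to -0.32, beside which the values of Slc34a1 were higher by A_64_P002631 and close by A_44_P259047. On the 75th percentile scale, the 95% interval of A_44_P259047 ran from 0.874-fold to 1.16-fold.

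Slc34a3 encodes the cotransporter NaPi-IIc, which shares the brush border with NaPi-IIa. Its single probe had log2 values of 4.65, 5.05 and 4.76 on 2-amino-4-nitrophenol replicates 1, 2 and 3, compared with 5.08, 4.87 and 5.11 in the corn oil rats. Here 2-amino-4-nitrophenol replicate 2 lay with the corn oil arrays, and replicates 1 and 3 lay below them. The log2 difference was -0.20 ± 0.14 (95% interval -0.53 to 0.14, limma adjusted p = 0.426). It was negative in all 19 alternatives (-0.52 to -0.11), several of which cannot change it by construction.

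Slc20a1 encodes PiT-1, a type III cotransporter that supplies phosphate to most cells. Its brighter probe, A_44_P132610, had log2 values of 1.55, 1.02 and 1.59 on the 2-amino-4-nitrophenol arrays, compared with 1.09, 1.06 and 1.03 in the corn oil rats. The dimmer probe, A_44_P132614, had 0.46, -0.02 and 0.51 on the 2-amino-4-nitrophenol arrays, compared with 0.14, -0.09 and 0.06 in the corn oil rats. Both probes were high in dosed animals 1 and 3 and at the corn oil level in dosed animal 2, and they correlated at r = 0.96. The log2 differences were 0.33 ± 0.17 and 0.28 ± 0.17, with limma adjusted p of 0.306 and 0.357. Without 2-amino-4-nitrophenol replicate 2 they were 0.51 and 0.45, and with spike-in scaling 0.007 and -0.04. Array weights gave A_44_P132610 a limma adjusted p of 0.0351, within a range over the alternatives of up to 0.987.

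Slc20a2 encodes PiT-2, the other type III cotransporter. Its brightest probe, A_43_P10047, had log2 values of 3.28, 2.98 and 3.32 on the 2-amino-4-nitrophenol arrays, compared with 3.09, 2.94 and 2.90 in the corn oil rats. Its log2 difference of 0.22 ± 0.12 did not pass (limma adjusted p = 0.345), and with spike-in scaling it was -0.10. The other 3 probes, A_64_P078666, A_44_P449774 and A_64_P078664, were much dimmer, with unscaled signals of 69.2 to 245 on the 2-amino-4-nitrophenol arrays and 94.7 to 346 on the corn oil arrays. Their differences were -0.09 ± 0.13, -0.16 ± 0.14 and 0.01 ± 0.17, so that the probes of this gene disagreed in sign. The brightest probe was in decile 9 of signal, where the median over all tested probes was 0.12. The others were in deciles 5, 5 and 4, with medians of -0.05 in decile 5 and -0.07 in decile 4. Dosed animal 2 again had the lowest value of its group in all 4 probes.

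Pdzk1 is a PDZ scaffold that binds NaPi-IIa below the brush border. Its probe had log2 values of 6.07, 6.40 and 6.26 on the 2-amino-4-nitrophenol arrays, compared with 6.37, 6.20 and 6.28 in the corn oil rats. The groups overlapped fully, and the log2 difference was -0.04 ± 0.12 (95% interval -0.32 to 0.24, which is 0.8-fold to 1.18-fold; limma adjusted p = 0.853). After quantile normalization the difference was -0.30, and the adjusted p in limma was 0.223.

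**Figure D3:**
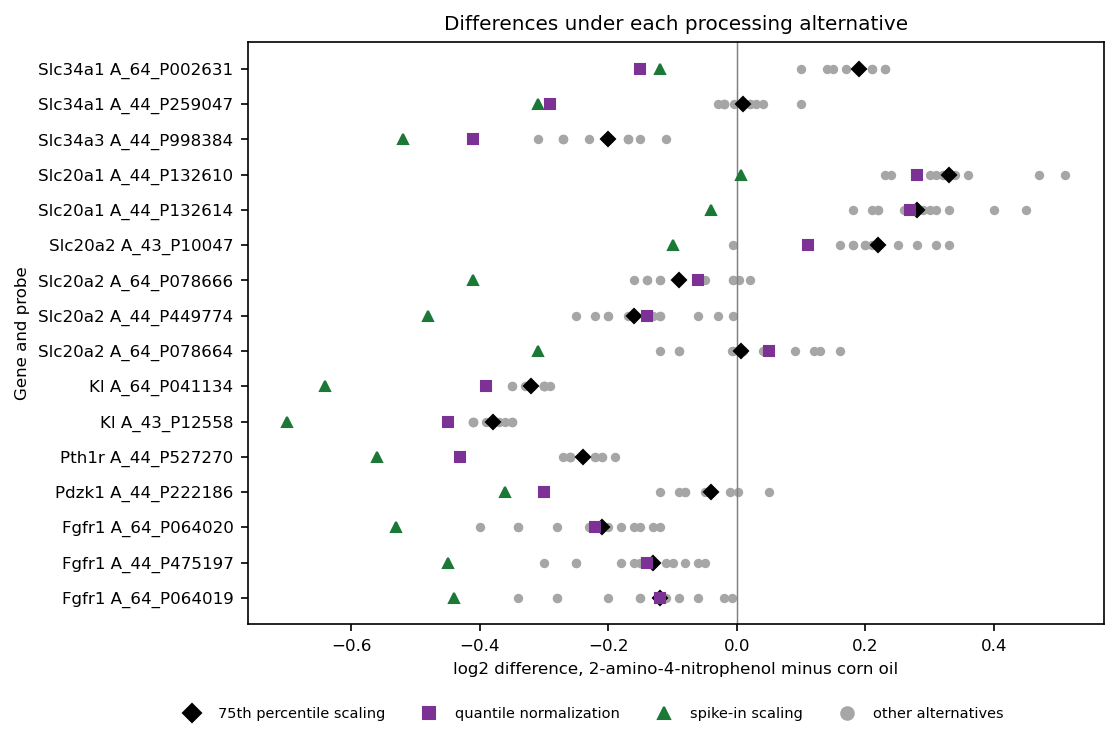
Log2 difference of each of the 16 probes under the 75th percentile scaling (diamonds) and under each processing alternative (19 in all, fewer for probes that are not the brightest of their gene). Both Kl probes, Pth1r, Slc34a3, all Fgfr1 probes and Slc20a2 A_44_P449774 stay below 0 throughout. Both Slc34a1 probes lie below 0 after quantile normalization (squares) and spike-in scaling (triangles). Spike-in scaling shifts all probes of an array by the same amount, so by construction the 16 probes move down together.

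The other genes of phosphate handling were taken from a list of 52, of which 47 had a named probe and 38 had a tested one, with 62 tested probes. In limma 0 of the 62 probes passed the adjusted threshold. At an unadjusted p under 0.05, 3 were higher and 5 lower, together 12.9% of the 62, where 20.7% of all tested probes had such a p. Among the lower ones, the probes of Dmp1 and Fgfr2 passed the filter only through the corn oil group. The count with such a p was 19 (7 higher, 12 lower) without 2-amino-4-nitrophenol replicate 1 and 17 (0 higher, 17 lower) with spike-in scaling. It was 22 (10 higher, 12 lower) with array weights, and 4 to 8 when other single arrays were left out. Normexp background correction and median scaling each gave 11 (6 higher, 5 lower), and quantile normalization 13 (3 higher, 10 lower). With no filter on dim probes it was 16 of 82 (11 higher, 5 lower). With the brightest probe per gene it was 10 of 38 (6 higher, 4 lower). The split by direction thus moved with the processing. The median log2 difference of the 62 probes was -0.09. The groups did not overlap for 6 probes that were higher and 11 that were lower, which is 9.68% and 17.7% of the 62, beside 17.1% and 12.9% of all tested probes.

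The SLC17 transporters, proximal tubule carriers first described as sodium-phosphate transporters and now known to carry organic anions such as urate, held the 3 higher probes. Slc17a1 had log2 values of 2.81, 2.03 and 2.65 on the 2-amino-4-nitrophenol arrays, compared with 1.67, 1.62 and 1.62 in the corn oil rats. Its log2 difference was 0.86 ± 0.21 (limma adjusted p = 0.165). Slc17a3 had 5.48, 4.06 and 5.15 on the 2-amino-4-nitrophenol arrays, compared with 3.74, 3.83 and 3.86 in the corn oil rats, a log2 difference of 1.08 ± 0.35 (limma adjusted p = 0.195). In both genes all dosed animals were above all corn oil animals, and dosed animal 2 was nearest to them, as it was for Slc20a1. Slc17a2 had -0.76, -0.62 and -0.85 on the 2-amino-4-nitrophenol arrays, compared with -1.11, -1.36 and -0.97 in the corn oil rats, a log2 difference of 0.40 ± 0.13 (limma adjusted p = 0.196).

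On the hormone side, Cyp27b1, the kidney enzyme that makes active vitamin D, had log2 values of -2.77, -2.19 and -2.07 on the 2-amino-4-nitrophenol arrays, compared with -1.62, -1.39 and -1.75 in the corn oil rats. All dosed animals were below all corn oil animals, and the log2 difference was -0.76 ± 0.21 (limma adjusted p = 0.179). Cyp24a1, which breaks active vitamin D down, varied widely among dosed animals, with 2.17, -0.22 and 1.26 for its brighter probe, compared with 1.34, 1.49 and 2.06 in the corn oil rats. The vitamin D receptor Vdr had log2 differences of -0.24 ± 0.26 and -0.30 ± 0.22. Cyp24a1 and Vdr were picked with their values known, to stand beside Cyp27b1.

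Among the inositol pyrophosphate kinases, whose products act on the phosphate exporter XPR1, the probe A_44_P144393 of Ip6k2 had a log2 difference of -0.38 ± 0.11 and the probe A_44_P110098 of Ppip5k1 had -0.47 ± 0.16. Their groups did not overlap, and their limma adjusted p was 0.182 and 0.199. The other tested probes of Ppip5k1, A_64_P156094 and the brightest one, A_42_P618145, had -0.25 and 0.01. The matrix protein gene Dmp1 (-0.61 ± 0.21) and 1 probe of the FGF receptor Fgfr2, A_64_P064028 (-0.46 ± 0.17), were near background, each well above it on 2 of the 3 2-amino-4-nitrophenol arrays and all 3 corn oil arrays. Their limma adjusted p was 0.202 and 0.210. Both passed the filter only through the corn oil group, where they were higher, so the filter itself favoured a fall. Their p-values are therefore no support for a difference. The other tested probes of Fgfr2 ran from -0.40 for A_44_P139894 to 0.21 for A_64_P113700, the brightest. Over all tested probes, the median difference ran from -0.22 in the dimmest decile of signal to 0.24 in the brightest. Dim probes could pass the filter through either group alone, which can shift the medians of the dim deciles. With no filter on dim probes, the median over all probes was 0.08, beside 0.00 with it. The part of signal level in the differences of the probes named here, and in that of Cyp27b1, was not tested.

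Among the apical anchors, Nherf1, the PDZ partner of NaPi-IIa, had a log2 difference of 0.08 ± 0.11. Ezr, which ties such scaffolds to actin, had 0.05 ± 0.11 for its brighter probe and -0.21 ± 0.10 for the dimmer one. By the dimmer probe all dosed rats were below all corn oil rats. Nherf2, a related scaffold, had -0.09 ± 0.11. Nherf4, a PDZ protein of the same family, had the largest difference of the 6 anchor probes, 0.29 ± 0.12 for A_44_P976960 (limma adjusted p = 0.248), with all dosed rats above all corn oil rats, and 0.17 ± 0.11 for its other probe. These were all 4 genes of the anchor list, and they too were described with their values known. The transcripts of the circulating hormones Fgf23 and Pth, which are made outside the kidney, were not well above background on any array. The same held for Fgf7, Mepe, Phex and Sfrp4. Pth2r, Slc34a2 and Stc2 were above it on too few arrays to be tested.

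**Figure D4:**
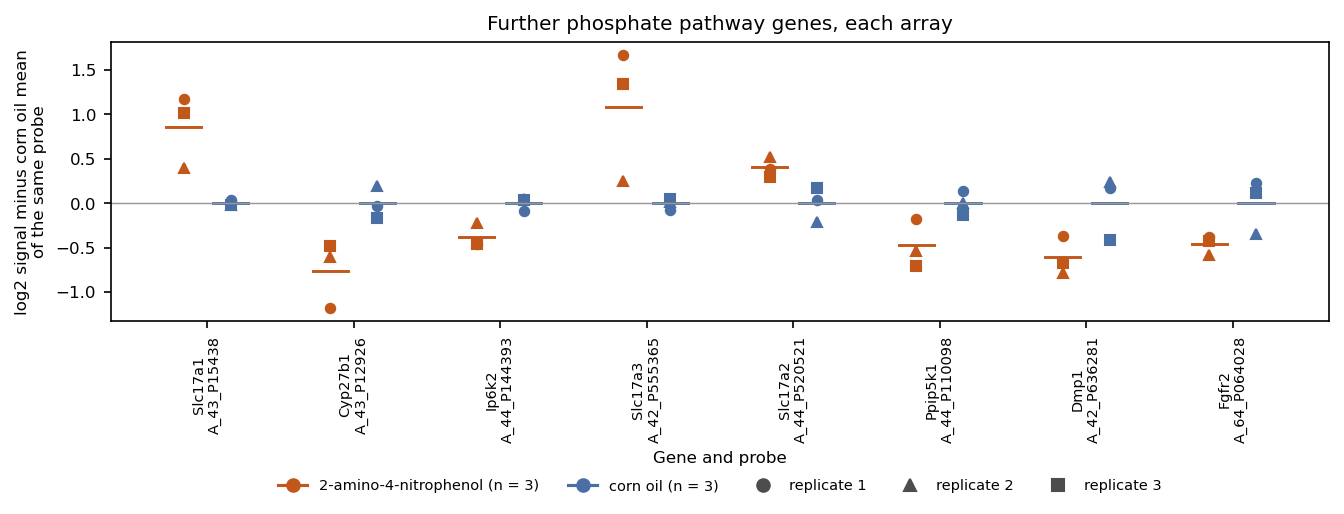
Log2 signal on each array, relative to the corn oil mean of the same probe, for the 8 further genes with the lowest p-values (1 probe each). 2-amino-4-nitrophenol stands left of corn oil. Slc17a1, Slc17a3 and Slc17a2 lie above the corn oil arrays, Cyp27b1, Ip6k2, Ppip5k1 and Fgfr2 lie below them, and Dmp1 overlaps. The probes of Fgfr2 and Dmp1 passed the filter only through the corn oil group.

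The genes whose values followed the members most closely over the 6 arrays were found among 20329 tested probes of other named genes. For the probe A_64_P041134 of Kl they were Clk2 (r = 0.993), Mprip (r = 0.992) and Exoc2 (r = 0.991), with log2 differences of -0.26, -0.20 and -0.45. For the probe A_64_P002631 of Slc34a1 they were Fkbp3 (r = 0.999), Eif3i (r = 0.999) and Eloc (r = 0.997), with log2 differences of 0.33, 0.31 and 0.39. An r above 0.9 was reached by 2.9% of these probes for Kl and by 10.4% for Slc34a1. These are descriptions over the same 6 arrays, which share the difference between the groups.

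The markers of other cell types are given for the 4 lists named here. The proximal tubule list had 10 of 10 genes tested, with 2 lower and 1 higher without overlap by their brightest probes. Lrp2, the endocytic receptor megalin, was one of the lower genes. It had log2 values of 6.06, 5.89 and 6.03 on the 2-amino-4-nitrophenol arrays for its brighter probe, compared with 6.43, 6.20 and 6.36 in the corn oil rats. The other lower gene was Slc5a12, with a log2 difference of -0.50, and the higher gene was Slc22a6, with 0.14. The median log2 difference over the 10 proximal genes was -0.14, beside 0.33 over the 5 markers of the straight segment (S3), of which 2 were higher without overlap. Those 5 summed to 269.68 to 377.33 times the 75th percentile on the 2-amino-4-nitrophenol arrays and 307.96 to 343.99 times on the corn oil arrays. Of 6 tested collecting duct principal cell markers, 3 were lower without overlap. Their median log2 difference was -0.30, beside -0.45 over the 4 tested distal tubule markers. Of all tested probes, 12.9% were lower and 17.1% higher without overlap, and each of these lists is too short to set against such shares. The medians of the other lists, which covered the thick ascending limb, intercalated cells, podocytes, endothelium, fibroblasts, leukocytes and tubular injury, ran from -0.16 (leukocytes) to 0.35 (tubular injury), and 0 markers of any list passed the adjusted threshold. The 4 erythroid markers, all tested and 3 of them higher without overlap, summed to 267.38 to 398.57 times the 75th percentile on the 2-amino-4-nitrophenol arrays and to 149.77 to 207.76 times on the corn oil arrays. Their median log2 difference was 1.19. Their part in the values of the members was not tested.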

How the data were processed

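Feature Extraction by Agilent, version 10.7.1.1 per the file headers (10.7 in the submitters' processing notes), gave the deposited intensity, from which background had been subtracted and spatial trends removed. Flags in the same deposited files say whether a spot was well above background, saturated or an outlier. In the authors' deposited value table, each ratio sets an intensity against its array's 75th percentile. Each of the 6 columns of that table matched, to an SD of 0.0003 or 0.0004 on the log2 scale, the scanner data of a different replicate in the same group. Replicate numbers here follow the scanner data.

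Processed intensity was put on the log2 scale, the 75th percentile of each array's non-control probes was subtracted, and groups were compared in limma 3.58.1 (R 4.3.3; lmFit, eBayes; no block). After 64 probes with an outlier flag were dropped, those well above background on every array of either group were kept, 40894 in all, and Benjamini-Hochberg adjustment ran over these with a threshold of 0.05. Residual and prior degrees of freedom were 4 and 2.35. Of 33356 probes with a RefSeq accession, 27460 were named through a RefSeq gene table of GRCr8. The series' design text calls the animals biological replicates. No value column was left unused (0).

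The members, the further list and the markers were chosen with earlier results of these data known. Further genes were to be named if they passed the threshold (0 did) or were among the 8 with the lowest p. Alternatives covered background correction, scaling, filters, probe summaries, blocks, moderation, array weights, the value table and the loss of each array.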

Additional observations from a re-analysis of the deposited data

How the results depend on the processing

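Of 296 comparisons of a single member probe with an alternative, 271 kept sign and side of the threshold, 22 changed sign and 3 newly passed (limma adjusted p 0.0237 and 0.0339 for Kl and 0.0351 for Slc20a1, all with array weights, which ran from 0.35 to 2.9). The value table, the filters, the brightest probe, the replicate block and the moderation settings leave a probe's log2 difference as it was, or nearly so. The signs kept there were fixed by construction. The slide block gave the same differences as leaving out corn oil replicate 2, the only array on its slide. In every alternative run, 9 of the 16 probes kept their sign: both of Kl, the 3 of Fgfr1, Pth1r, Slc34a3, Slc20a1 A_44_P132610 and Slc20a2 A_44_P449774.

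The count of all tested probes past the threshold, 0 as reported, was 4 with normexp background correction, 3 with the brightest probe per gene, 2 with trend and robust settings, 8059 with array weights and 0 to 91 when single arrays were left out (91 without 2-amino-4-nitrophenol replicate 2, 17 without replicate 1, 1 without replicate 3). At an unadjusted p under 0.05, 8473 probes (54.5% higher) became 7179 (43.3% higher) after quantile normalization, 10082 (76.9% higher) with normexp and 9545 (3% higher) with spike-in scaling. With array weights, 3 member probes and 8 further pathway probes passed. Leaving out single arrays gave 0 member probes and 0 to 2 further pathway probes (2 without 2-amino-4-nitrophenol replicate 2). The member median of -0.10 was -0.42 with spike-in scaling, where all probes had -0.32, -0.17 with the slide as a block, and -0.17 to -0.03 when single arrays were left out (-0.17 without corn oil replicate 2 and -0.03 without corn oil replicate 1).

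Sign changes were as follows. Slc34a1 A_44_P259047 gave -0.02 with normexp, -0.29 with quantile normalization, -0.31 with spike-in scaling, -0.02 with the slide block, -0.03 with array weights, and -0.02 to 0.03 when single arrays were left out (-0.004 without 2-amino-4-nitrophenol replicate 1 and -0.02 without corn oil replicate 2). Slc34a1 A_64_P002631 gave -0.15 with quantile normalization and -0.12 with spike-in scaling. With spike-in scaling Slc20a1 A_44_P132614 gave -0.04, Slc20a2 A_43_P10047 -0.10 and Slc20a2 A_64_P078664 -0.31. The mean over the Slc20a2 probes was -0.006. Slc20a2 A_64_P078664 gave -0.09 with the slide block and -0.12 to 0.13 when single arrays were left out (-0.12, -0.09 and -0.007 without 2-amino-4-nitrophenol replicate 3, corn oil replicate 2 and corn oil replicate 3). Slc20a2 A_64_P078666 gave 0.003 with array weights and -0.16 to 0.02 when single arrays were left out (0.02 without 2-amino-4-nitrophenol replicate 2). Pdzk1 gave -0.12 to 0.05 when single arrays were left out, with 0.05 without 2-amino-4-nitrophenol replicate 1 and 0.002 without corn oil replicate 1. Where no construction of the alternative shows it, the cause was not tested.

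The replicate numbers did not pair the samples: deviations of same-numbered arrays correlated at 0.00, -0.04 and -0.02. With the replicate number as a block, 0 probes passed, 7000 had an unadjusted p under 0.05, and the member median was -0.10.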
